A study of Triticum aestivum with 9 samples.

Results

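The mild heat step of the study compared filling grains of bread wheat (Triticum aestivum cv. Chinese Spring) after 1 h at 30 °C with grains of the same stage kept at 20 °C. Of the 9 samples of the series, 6 belonged to this comparison, 3 at 30 °C and 3 at 20 °C, and the other 3 were taken at 40 °C. All plants were raised in a greenhouse, moved to 20 °C after flowering for a period of adaptation, and sampled in the light from the grains of the main stem. The heated plants were shifted to an incubator that was already warm while the controls stayed where they were, so the move and the temperature cannot be told apart. Each sample came from a separate plant. Grains hold several tissues, so a change in the amount of RNA per cell and a change in the proportion of cell types cannot be told apart. Of 133744 annotated transcripts, 45956 transcripts of 42624 genes had a mean FPKM above 1 at either temperature and were tested. FPKM is the number of fragments scaled to the length of the transcript and to the mapped fragments of the sample. The limit cut through a dense range of levels, since 1599 tested transcripts had a larger mean FPKM of 1 to 1.1 and 1780 transcripts with 0.9 to 1 were left out.

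Plant cells answer a rise in temperature within minutes, when heat shock transcription factors switch on genes for chaperones that keep proteins folded. In filling grains this response runs beside a transcriptome dominated by a small number of very abundant storage protein and starch synthesis messages. Bread wheat is hexaploid, and its A, B and D subgenomes carry related copies (homoeologs) of most genes, grouped on homoeologous chromosomes. The identifier of each transcript gives its chromosome and subgenome, and the gene numbers follow the order along the chromosome. No source used here links the identifiers to gene names, so functions are not given.

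The total expected count of the 6 samples lay between 15778561 and 18086391. A transcript below 3 counts in a sample could not be told from absence, for counting error alone. Over transcripts with a mean FPKM above 3, the root mean square difference between 2 samples in log2 CPM (counts scaled to the library size) was 0.542, 0.569 and 0.426 within 30 °C and 0.534, 0.531 and 0.441 within 20 °C. Replicate 1 was the farthest from its own group at both temperatures. Pairs across the temperatures differed by 0.664 to 0.91, more than any pair within a temperature.

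The sample 30 °C replicate 3 stood apart on stretches of a pair of chromosomes. Transcripts were placed in gene order and divided into 400 windows of up to 60, and the median difference of each sample from the other samples of this comparison was taken, a scan of 2400 values made after the data were seen. The 6 values farthest from 0 were all in 30 °C replicate 3, with -0.40 in each of the first 2 windows of 1B and 0.25 to 0.30 in 4 windows of 5D. The 120 transcripts at the start of 1B had a median deviation of -0.39 in 30 °C replicate 3, where 82.5% of them were below 0, while the other 2 samples at 30 °C had 0.05 and -0.10 and the samples at 20 °C had 0.10, 0.15 and 0.04. The 751 transcripts of 5D from window 10 on (gene numbers from 230500) had a median deviation of 0.20 in 30 °C replicate 3. For the same 5D transcripts the other 2 samples at 30 °C had 0.02 and -0.02, and the samples at 20 °C had -0.03, -0.06 and -0.02. The 540 transcripts of 5D before window 10 did not share the shift. Counts and shares by subgenome and chromosome that include 5D are therefore also given without that stretch or without that sample.

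**Figure D1:**
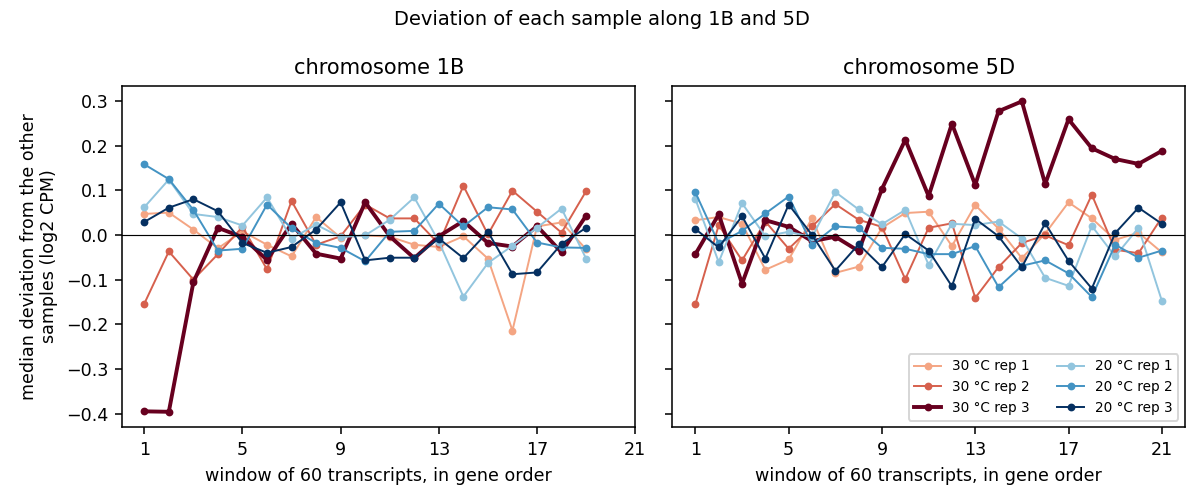
Median deviation of each sample from the other samples (log2 CPM, vertical axis) in successive windows of 60 transcripts along 1B and 5D (horizontal axis), with 30 °C samples in reds and 20 °C samples in blues. The sample 30 °C replicate 3 (dark red, thick) lies at -0.40 in the first 2 windows of 1B and above the other samples over 5D from window 10 on, with a highest value of 0.30.

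After 1 h at 30 °C, 1784 transcripts of 1745 genes were differentially expressed (DETs), which is 3.88% of those tested. Of these, 1185 were higher at 30 °C (2.58% of those tested) and 599 were lower (1.30%), a ratio of 1.98. DETs had a false discovery rate (FDR) under 0.05 in edgeR's quasi-likelihood test and a fold change above 2. Over all tested transcripts the log2 fold change had quartiles of -0.34 and 0.33 around a median of -0.004, which the TMM scaling holds near 0, so a shift shared by most transcripts would not be seen. A further 1134 transcripts passed the FDR with a smaller fold (684 higher, 450 lower), and 3826 had a fold above 2 without passing it. Of 35 genes with more than 1 DET, 4 had DETs in both directions.

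The number of DETs changed when a sample was left out, and that of lower DETs far more than that of higher DETs. With fewer samples a given fold passes the FDR less easily, and the part of this in the numbers below was not tested. Leaving out 30 °C replicate 1 gave 2757 DETs (1451 higher, 1306 lower), whereas leaving out 30 °C replicate 2 gave 960 (776 higher, 184 lower) and leaving out 30 °C replicate 3 gave 906 (735 higher, 171 lower). Leaving out 20 °C replicates 1, 2 and 3 in turn gave 1088, 1332 and 958 DETs, of which 891, 1023 and 790 were higher and 197, 309 and 168 were lower. Higher DETs outnumbered lower DETs in all 6 of these fits. The 631 higher DETs called in every such fit made up 53.2% of the 1185 and had a median log2 fold change of 2.19. Only 88 lower DETs were called in every such fit, or 14.7% of the 599, with a median of -1.61.

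Calls made without a replicate number could be read in the 2 samples, 1 at each temperature, that had taken no part in them. Without replicate 1 of both temperatures, 1195 transcripts were called higher, and 95.6% of them were also higher in the samples left out, 75.1% by more than 2-fold. For calls made without replicates 2 (460 transcripts) and 3 (408 transcripts), 97.4% and 98.5% were higher in the samples left out, 90.7% and 95.8% by more than 2-fold. Falling transcripts held up less well. Of 799, 49 and 41 called lower without replicates 1, 2 and 3, 91.5%, 83.7% and 80.5% were lower in the samples left out, and 40.8%, 75.5% and 65.9% by more than 2-fold. Over all transcripts, 49.4 to 50.1% lay in the named direction and 6.69 to 8.70% lay more than 2-fold away in it.

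Most changes were moderate. Of the higher DETs, 735 (62.0%) rose by 2- to 4-fold, 242 (20.4%) by 4- to 8-fold, 155 (13.1%) by 8- to 16-fold and 53 (4.47%) by more. Of the lower DETs, 479 (80.0%) fell by 2- to 4-fold, 57 (9.52%) by 4- to 8-fold, 11 (1.84%) by 8- to 16-fold and 52 (8.68%) by more. The class above 16-fold was mostly made of transcripts at 0 counts at 1 temperature among the lower DETs, where 33 of 52 had no counts in any 30 °C sample, and less so among the higher DETs, where 14 of 53 had none in any 20 °C sample. The fitted fold of such transcripts depends on the prior count and is no measure of size. The median log2 fold change was 1.64 for higher DETs and -1.39 for lower DETs.

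Measured as a share of TPM, in which the length-corrected values of each sample are scaled to a common sum, the higher DETs made up 4.67, 4.72 and 5.14% in the samples at 30 °C, against 0.976, 1.13 and 1.03% at 20 °C. The gain was spread over many transcripts, with 12.3% of it on the 10 transcripts that gained most and 56.2% on the top 100. In the samples at 40 °C the same transcripts made up 11.5, 11.2 and 9.09%. The lower DETs made up 0.627, 0.452 and 0.444% at 30 °C, against 1.35, 1.01 and 1.17% at 20 °C. At 40 °C the same transcripts made up 0.493, 0.636 and 0.833%. In contrast to the gain, 47.0% of the loss lay on 1 transcript, TraesCS6D02G000200.1. Without this transcript the lower DETs made up 0.279, 0.234 and 0.236% at 30 °C, against 0.680, 0.533 and 0.598% at 20 °C. At 40 °C they then made up 0.219, 0.183 and 0.254%, so the rest of the set stayed below the 20 °C samples. These shares describe the called transcripts and were not tested, since the calls came from the same samples.

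The most abundant messages took a smaller share after mild heat. The 100 most abundant transcripts, taken in each sample on its own, held 47.1, 44.7 and 41.8% of TPM at 30 °C, against 54.1, 51.4 and 49.4% at 20 °C. The groups did not overlap (mean 44.5% ± 2.68 at 30 °C and 51.6% ± 2.33 at 20 °C, SD, n = 3 each, exact two-sided permutation p = 0.1, the smallest that 3 against 3 samples allow). At 40 °C the values were 39.7, 41.3 and 50.7%, the last within the range of the 20 °C samples.

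The transcripts named here are the DETs with the largest change and the highest mean level in each direction, among those with a mean FPKM of at least 5, counts in all 6 samples and no overlap between the temperatures. These conditions were met by 757 higher and 152 lower DETs. The last condition removed none, since all 1185 higher and all 599 lower DETs met it. Over all tested transcripts, 16.1% had every 30 °C sample above every 20 °C sample, and 14.3% had every one below. TraesCS5A02G383800.1, on 5A, had the largest rise, with 45.4, 45.4 and 52.8 FPKM at 30 °C against 2.17, 2.26 and 1.51 FPKM at 20 °C. The groups were far apart relative to the spread within either. The means were 47.8 ± 4.25 FPKM at 30 °C and 1.98 ± 0.41 FPKM at 20 °C (SD, n = 3 each), and the log2 fold change was 4.56 (approximate SE 0.19, edgeR FDR 1.8e-05). At 40 °C it had 83.8, 110.5 and 73.2 FPKM.

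TraesCS5D02G425800.1, on 5D, was the most abundant riser, with 634, 587 and 782 FPKM at 30 °C against 232, 433 and 268 FPKM at 20 °C. The groups did not overlap, as the choice required, but the highest control was close to the lowest heated sample. Its log2 fold change was 1.08 (approximate SE 0.24, edgeR FDR 4.6e-02), and the call was lost in 9 of 15 other settings. This transcript lies on the stretch of 5D where 30 °C replicate 3, its highest sample, stood apart, and without that sample its log2 fold change was 0.97 (edgeR FDR 1.5e-01). The samples at 40 °C had 520, 371 and 341 FPKM.

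TraesCS2B02G138100.1, on 2B, had the largest fall, with 7.69, 6.79 and 8.89 FPKM at 30 °C against 40.7, 32.2 and 39.4 FPKM at 20 °C. The means were 7.79 ± 1.05 FPKM at 30 °C and 37.4 ± 4.58 FPKM at 20 °C (SD, n = 3 each), and the log2 fold change was -2.29 (approximate SE 0.15, edgeR FDR 1.7e-04). At 40 °C the level was 8.69, 7.78 and 7.58 FPKM, within the range of the 30 °C samples. TraesCS6D02G000200.1, a transcript of 456 bases on 6D, was the most abundant to fall. It had 3698, 2325 and 2150 FPKM at 30 °C against 7201, 5227 and 6089 FPKM at 20 °C, a log2 fold change of -1.19 (approximate SE 0.26, edgeR FDR 4.1e-02). The call was lost in 8 of 16 other settings. Its 40 °C samples spread widely, at 2836, 4858 and 6362 FPKM.

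**Figure D2:**
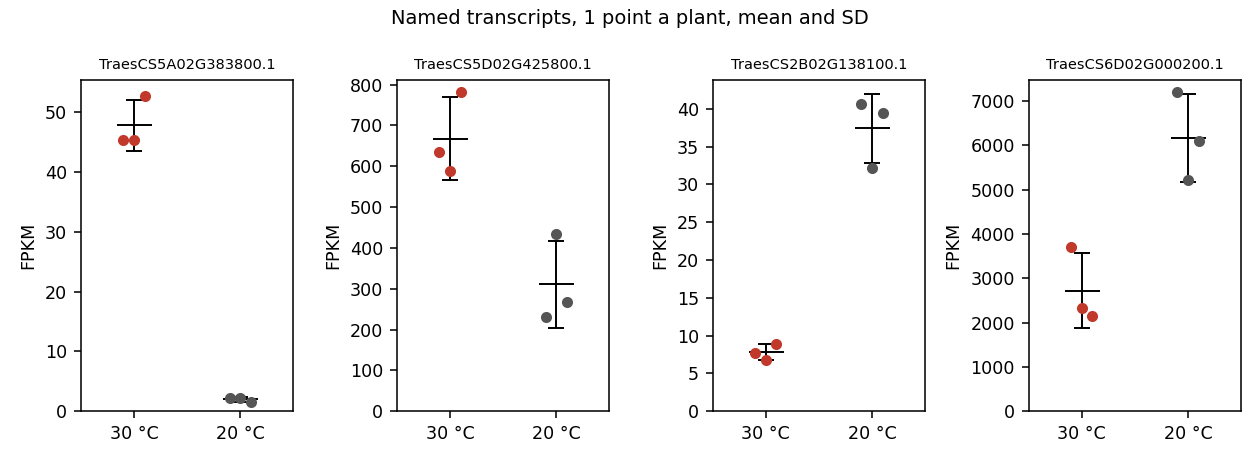
FPKM of the 4 named transcripts (vertical axes, each with its own scale) at 30 °C (left, red) and 20 °C (right, grey), with 1 point a plant, the mean (bar) and SD (whiskers, n = 3). The groups are far apart for TraesCS5A02G383800.1 (means 47.8 and 1.98) and TraesCS2B02G138100.1 (means 7.79 and 37.4) and closer for the other 2 transcripts.

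The share of transcripts called changed with their level at 20 °C. A given fold passes the FDR more easily at higher counts, and the part of this in the shares below was not tested. Among transcripts that began at 1 to 3 FPKM, 1.74% were higher at 30 °C, and the share was 2.31% at 3 to 10 FPKM, 3.62% at 10 to 30, 2.91% at 30 to 100 and 1.72% above 100 FPKM. The share of lower DETs lay between 1.14 and 1.64% over these 5 classes. The limit on FPKM shaped the lowest of them, since 3568 of its 18782 transcripts were tested only because they passed 1 FPKM at 20 °C, and these held 225 of its 262 lower DETs and no higher DET. Among transcripts above 1 FPKM at both temperatures, 2.15% of the class of 1 to 3 FPKM were higher and 0.243% lower, against 2.33% and 1.30% at 3 to 10 FPKM. The share higher was largest at 10 to 30 FPKM either way. Its 95% exact binomial interval (3.16 to 4.12%) lay above that of the class of 3 to 10 FPKM (2.08 to 2.56%) and overlapped that of 30 to 100 FPKM (2.24 to 3.71%). These intervals cover counting error only, and transcripts of a sample are not independent. Transcripts up to 1 FPKM at 20 °C had 7.28% higher and none lower, but they were tested only because they passed 1 FPKM at 30 °C and so could hardly fall. Likewise, of the 3650 transcripts above 1 FPKM at 20 °C alone, 250 were lower and none higher. Among the 39449 above 1 FPKM at both temperatures, 977 (2.48%) were higher and 349 (0.885%) lower.

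The size of the rise was similar in the classes from 1 to 100 FPKM and smaller above 100 FPKM, a class with 13 higher DETs. These medians cover only transcripts that passed the fold limit and the FDR, and a small fold passes the FDR less easily at low counts. The median log2 fold change of higher DETs was 1.59, 1.47, 1.57 and 1.42 in the classes from 1 to 100 FPKM and 1.08 above 100 FPKM, where the largest rise was 2.52. Up to 1 FPKM, where transcripts were tested only because they passed 1 FPKM at 30 °C, the median of higher DETs was 2.21. In lower DETs the median was -1.66 at 1 to 3 FPKM and -1.29, -1.28, -1.28 and -1.19 in the classes above. The limit on FPKM shaped the first of these medians, since 225 of its 262 lower DETs passed 1 FPKM at 20 °C only. Higher DETs had a median level of 13.0 FPKM at 30 °C and 3.66 FPKM at 20 °C, whereas lower DETs had 1.27 FPKM at 30 °C and 3.55 FPKM at 20 °C. The median over all tested transcripts was 3.26 FPKM at 20 °C.

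**Figure D3:**
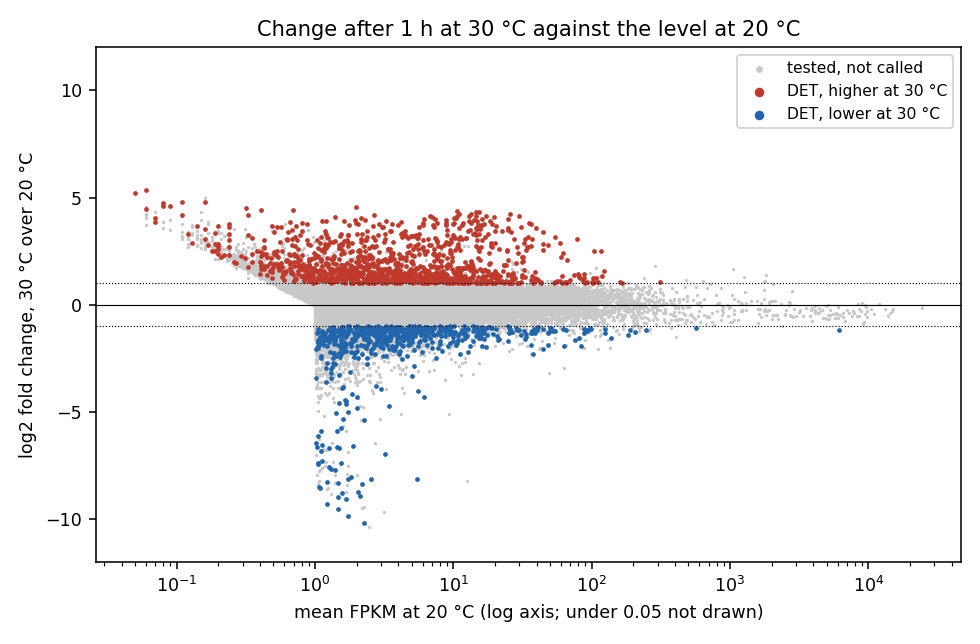
Log2 fold change (30 °C over 20 °C, vertical axis) of each tested transcript against its mean FPKM at 20 °C (horizontal log axis), with DETs higher at 30 °C in red, DETs lower at 30 °C in blue and all others in grey. The slanted left edge and the vertical edge at 1 FPKM come from the limit of 1 FPKM at either temperature.

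The order of the level classes depended on which samples set them. With classes by the mean over both temperatures, the share higher grew from class to class above 1 FPKM, with 1.12, 2.49, 4.84, 7.42 and 9.22%, and the share lower was 1.24, 1.09, 0.929, 1.05 and 0.683%. A transcript that rises gains in this mean, so these classes share the measurement with the calls. With classes by 20 °C replicate 1 alone and calls made without that sample, the share higher was 1.42, 1.99, 3.15, 2.46 and 0.568% in the same 5 classes. The peak at 10 to 30 FPKM was thus present when the sample that set the classes took no part in the test.

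All 3 subgenomes responded to a similar extent. Of 15074 D transcripts, 430 (2.85%, 95% exact interval 2.59 to 3.13) were higher at 30 °C, with 373 of 15090 A transcripts (2.47%, 2.23 to 2.73) and 365 of 15136 B transcripts (2.41%, 2.17 to 2.67). The D share was the highest, and its interval overlapped those of A and B. Lower DETs made up 1.29% of D, 1.23% of A and 1.37% of B transcripts. Of the 656 tested transcripts on no assigned chromosome, 17 were higher and 12 lower. D held 35.0% of all DETs and 32.8% of tested transcripts, A 31.3% and 32.8%, and B 32.1% and 32.9%. Without the 5D stretch named above, D held 32.4% of DETs and 30.8% of tested transcripts. A then held 32.5% of DETs and 33.8% of tested transcripts, and B 33.4% and 33.9%.

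The share of D transcripts called higher was the highest of the subgenomes in all 18 alternative settings. The margin changed with the samples and regions used. Without the 5D stretch this share of D was 2.73%. Without that stretch and without runs of neighbouring risers it was 2.52%, against 2.43% in A and 2.28% in B. Counting only the higher DETs called in every fit with a sample left out, D had 1.44%, A 1.34% and B 1.35%. Within homoeologous groups D had the highest share of higher DETs in 7 of 7 groups and of lower DETs in 2 of 7. The count for higher DETs was 6 without the 5D stretch, 6 without the runs and 5 without both. With all transcripts, all 7 groups showed this order in 4 of the 18 other settings, and the smallest number was 4.

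The shares of TPM showed small moves between subgenomes. Abundant transcripts weigh most in such shares, and the 100 most abundant held 41.8 to 54.1% of TPM in the 6 samples. The median log2 fold change of tested transcripts was -0.01 on A, -0.01 on B and 0.01 on D. D transcripts held 29.1, 29.5 and 30.0% of TPM at 30 °C, against 28.1, 28.5 and 28.8% at 20 °C, and A transcripts held 25.3, 26.9 and 27.2% at 30 °C, against 24.2, 24.9 and 25.1% at 20 °C. Without the 5D stretch D held 27.4, 27.7 and 27.9% at 30 °C, against 26.7, 26.9 and 27.2% at 20 °C. None of these overlapped between temperatures. The test of the full D share and that of the A share reached the same value (exact two-sided permutation p = 0.1 for each, the smallest possible, 0.15 adjusted over the 3 subgenomes). B transcripts held 29.8, 28.4 and 27.3% at 30 °C, against 29.8, 29.6 and 29.8% at 20 °C, and the groups overlapped (exact permutation p = 0.4, adjusted 0.4). The lowest B value was that of 30 °C replicate 3, the sample that was low at the start of 1B. The B share was not taken without that stretch. Transcripts on no assigned chromosome held 15.8, 15.2 and 15.5% at 30 °C, against 17.9, 17.1 and 16.3% at 20 °C. The shares of 1 sample sum to a fixed total and are not independent.

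By chromosome, 7D had the highest share of DETs, with 77 higher DETs (3.49%) and 31 lower (1.41%) of 2206 tested, followed by 4D with 3.27% higher. The fewest risers were on 6B, with 37 higher (1.93%) and 23 lower (1.20%) of 1919. All other chromosomes had between 2.32 and 2.89% higher, close to the 2.58% over all transcripts. Group 7 as a whole had 3.07% higher and group 6 had 2.36%. The order was not firm, since 7D was highest in 13 of 18 other settings. Lower DETs ranged from 0.842% on 3A to 1.69% on 6A.

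Chromosome 5D was uneven. From window 10 on, 55 of 1324 tested transcripts (4.15%) were higher, against 15 of 1103 (1.36%) on the remainder of the chromosome. Without 30 °C replicate 3, the distal stretch had 27 of 1312 higher (2.06%), when the share over all transcripts was 1.60%. In that fit 5D as a whole, which includes the stretch, had 1.32% of 2423 higher, so the stretch was still above the whole chromosome. The remainder of 5D was not taken alone in that fit. With all samples, the 1.36% on 5D outside the distal stretch was below the share on the whole of 5A (2.43%) and 5B (2.44%). No matching part of 5A or 5B was left out, so a part is set here against whole chromosomes. At the start of 1B, 4 of 209 transcripts were higher and 4 lower with all samples, and 4 and 1 of 213 without 30 °C replicate 3.

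**Figure D4:**
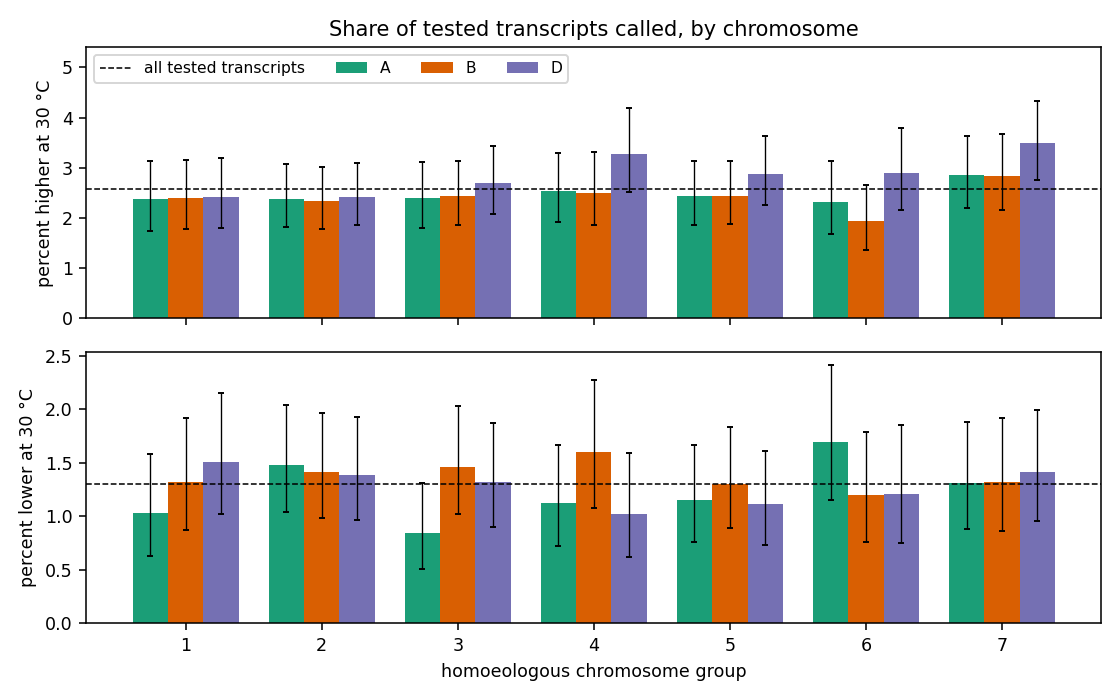
Percent of tested transcripts higher (top) and lower (bottom) at 30 °C (vertical axes) by homoeologous chromosome group (horizontal axis) for the A, B and D copies, with 95% exact binomial intervals that cover counting error only and a dashed line for all tested transcripts. The highest share of risers is 3.49% on 7D and the lowest 1.93% on 6B, and most intervals cross the line.

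Rising genes lay beside each other more often than tested genes did. Of 1130 rising genes placed on chromosomes, 124 (11%) had a rising gene as the next annotated gene on either side, against 2.64% of all 41994 tested genes. Of 582 falling genes, 28 (4.81%) had a falling neighbour, against 1.31%. There were 13 runs of 3 or more rising genes, holding 54 genes, and none of falling genes. Groups 3 and 7 had 5 runs each, and groups 2, 4 and 5 had 1 each. The longest had 8 genes on 3D and 7 genes on 7D, and the next had 5 genes on 3B and 5 on 7B. Without the genes in runs, 7D had 2.92% higher and 4D had 3.07%. RSEM divides fragments between similar sequences, so neighbours that are near copies can share reads, and their values are uncertain.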

How the data were processed

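RNA of filling grains was measured in 3 plants at each temperature. The authors trimmed reads with Trimmomatic, aligned them to the IWGSC v1.0 genome and quantified transcripts with RSEM. The labels name edgeR 3.24.3. The extraction text in the labels describes another tissue, while every other label gives grains. The authors deposited for each sample an expected count per transcript, not normalized, and TPM and FPKM, both corrected for length and depth. Here the expected counts were rounded, the filter was a mean FPKM over 1 at 30 or 20 °C, and edgeR 4.0.16 (limma 3.58.1, R 4.3.3) was run on the 6 samples with TMM factors and its quasi-likelihood test, with Benjamini-Hochberg adjustment over all tested transcripts. DETs had an FDR under 0.05 and a fold above 2. The approximate SE is the size of the log2 fold change over the root of the F statistic. Windows used transcripts with a mean FPKM above 3 and log2(CPM + 0.5), taken against the median of the other samples and centred on 0 for each sample, and other log2 CPM values had a prior count of 2. Single values were compared by exact two-sided permutation over samples. Named transcripts were, in each direction, the DET with the largest change and that with the highest mean FPKM, under the conditions given above. Python 3.11.15, numpy 2.4.6, pandas 2.3.3, scipy 1.17.1 and matplotlib 3.10.9 were used. Alternatives were a replicate block, library size, upper quartile factors, DESeq2 1.42.0, glmTreat, other filters, all 9 samples, gene sums, whole counts and leaving out each sample. The windows, runs, 5D stretch, length comparison and the count of groups with D highest were added after seeing the data. The rule, classes and named transcripts were chosen with earlier results of these data known. Planned lists by function, marker genes and promoters were not used, since no identifier could be matched to a name or sequence, so the grain label was not checked against markers.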

Additional observations from a re-analysis of the deposited data

How the results depend on the processing

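Higher DETs outnumbered lower DETs under all alternatives. The number of DETs (1784) was 2918 without a fold limit (1869 higher, 1049 lower), 445 with glmTreat against a fold of 2 (407 higher, 38 lower) and 280 among the 4990 transcripts with whole counts (152 higher, 128 lower). Lower DETs (599) numbered 1034 with DESeq2, 389 with a limit of FPKM 5, 298 with no filter and 1004 with counts summed over genes. The percent of DETs that were higher (66.4) was 68.7 with library size, 61.5 with upper quartile factors, 58.1 with DESeq2, 64.1 without a fold limit, 91.5 with glmTreat, 69.4 with FPKM above 5, 76.7 with no filter, 71.7 with all 9 samples, 59.0 over genes and 54.3 for whole counts. The median FPKM at 20 °C of higher DETs (3.66) was 2.91 with DESeq2, 5.68 without a fold limit, 6.01 with glmTreat, 5.19 with FPKM above 5, 4.70 with no filter, 3.15 with all 9 samples, 3.14 over genes and 1.07 for whole counts. That of lower DETs (3.55) was 3.71 with library size, 3.31 with DESeq2, 5.39 without a fold limit, 2.40 with glmTreat, 4.31 with a mean FPKM above 1 over the 6 samples, 9.63 with FPKM above 5, 4.51 with no filter, 3.71 with all 9 samples, 3.11 over genes and 2.30 for whole counts. A stricter filter removes low transcripts and so moves these medians by construction. The cause of the other moves was not tested.

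Leaving out each sample gave 906 to 2757 DETs, 735 to 1451 higher, 168 to 1306 lower, 52.6 to 82.5% higher, a median FPKM at 20 °C of 3.67 to 5.65 (higher) and 4.14 to 5.29 (lower), and shares of DETs of 31.0 to 33.4% on A, 30.3 to 32.5% on B and 33.7 to 35.4% on D. D had the highest share of higher DETs in 4 to 7 groups. The log2 fold changes were 4.38 to 4.67 for TraesCS5A02G383800.1, 0.93 to 1.40 for TraesCS5D02G425800.1, -2.38 to -2.19 for TraesCS2B02G138100.1 and -1.52 to -1.03 for TraesCS6D02G000200.1.

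With the replicate number as a block there were 1946 DETs (1240 higher, 706 lower, 63.7% higher), 1505 of them DETs without it, and the median FPKM at 20 °C was 4.00 for higher and 4.80 for lower DETs. The deviations of same-numbered samples from their group means correlated by 0.14, 0.06 and 0.03 over the 45956 tested transcripts, and 30 °C replicate 3 correlated more with 20 °C replicate 2 (0.07). Over the 24610 transcripts with a mean FPKM above 3 the values were 0.29, 0.14 and 0.10, with -0.25 to 0.18 between samples of different number, and again 30 °C replicate 3 correlated most with 20 °C replicate 2 (0.18). Since not every pair passed 0.1 over the tested transcripts and the labels name no shared batch, the samples were taken to share only a number. The A and D shares of TPM and that of the 100 most abundant transcripts ranked the replicates alike at both temperatures. The B share, the unassigned share and the length measure did not. Whether samples were handled in pairs was not tested, and the permutation tests treat them as unpaired.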

Other observations

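Transcripts of 500 to 1000 bases rose more often than longer ones and than the shortest ones, up to 500 bases, of which 2.18% were higher and 0.579% lower. Of transcripts of 500 to 1000 bases, 3.62% were higher and 1.06% lower at 30 °C, and the share higher was 2.89% at 1000 to 1500, 2.35% at 1500 to 2000, 2.25% at 2000 to 3000 and 1.44% above 3000 bases, where 1.53% were lower. The median length was 1385 bases for higher DETs, 1679 for lower DETs and 1565 for all tested transcripts. The shift was not confined to DETs, since the median log2 fold change of all tested transcripts was 0.11 at 500 to 1000 bases and -0.10 above 3000 bases. The median log2 CPM of the class of 500 to 1000 bases minus that of the class above 3000 bases was -1.70, -1.64 and -1.66 in the samples at 30 °C, against -1.94, -1.84 and -1.82 at 20 °C. All heated samples lay above all controls by this measure, with a difference of 0.204 (n = 3 each, exact two-sided permutation p = 0.1, the smallest possible). The comparison was chosen after the data were seen. RNA quality per sample is not given in the sources used here, and its part in the difference was not tested.

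Transcripts of genes with a single annotated transcript were higher in 2.81% and lower in 1.43%, against 2.23% and 1.02% for genes with 2 annotated transcripts and 1.70% and 1.05% for genes with 3 and 1.80% and 1.00% for genes with 4 or more. Genes with several transcripts divide their fragments by estimate. Among the 4990 tested transcripts whose expected counts, deposited with 2 decimals, were exactly whole in all 6 samples, 2.10% were higher and 1.66% lower, against 2.64% and 1.26% of all others.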
